A study of Danio rerio with 4 samples.

Results

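The genes of the Fos and Jun families were followed in endothelial cells of the zebrafish caudal hematopoietic tissue, a vascular bed of the larval tail where blood stem and progenitor cells lodge. They were chosen by name, with earlier results of these data known. Of the 28346 listed genes, 9 carried a chosen Fos or Jun family symbol, 5 of them Fos and 4 Jun. The Fos genes were FOS (ENSDARG00000031683), fosaa (ENSDARG00000040135), FOSB (ENSDARG00000055751), FOSL1 (ENSDARG00000015355) and FOSL2 (ENSDARG00000040623). The Jun genes were JUN (ENSDARG00000043531), JUND (ENSDARG00000067850) and a pair that shares the name JUNB (ENSDARG00000104773 and ENSDARG00000074378). FOS and FOSL1 are names without a paralog letter and were taken for fosab and fosl1a. Which JUNB gene is junba and which is junbb is not given by the names used here, so both are called by their identifiers.

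The larvae were of wild-type genotype, untreated, and at day 5 of development. All carried Tg(kdrl:GFP;lyve1b:DsRed), in which the promoter of a vascular receptor gene drives GFP and that of a vein and lymphatic hyaluronan receptor gene drives DsRed. Vein libraries came from cells positive for both reporters and non-vein libraries from cells with GFP alone, with 2 libraries in each group, so both gates depend on how faithfully these promoters report. The sources used here do not give whether larvae were pooled or how cells were freed from the tissue. Nothing says that the libraries of a group came from separate clutches, so p-values cover the spread between these samples alone, and it may be technical.

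Fos and Jun proteins are basic leucine zipper factors that pair to form AP-1, a dimer that binds short palindromic DNA elements. Jun proteins can pair with one another or with Fos proteins, whereas Fos proteins need a Jun partner, and pairs of different make-up differ in strength and in stability. In mammals FOS, FOSB, JUN and JUNB are immediate early genes, whose transcripts accumulate within minutes of growth factor, shear or stress signals passed on by MAP kinases, and cell dissociation is known to induce them too. In endothelium AP-1 is known for roles in vessel growth and in the response to flow and inflammation.

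Estimated counts summed to 15672159 and 16409447 in vein, against 18047152 and 18862102 in non-vein, and levels are given as CPM (counts scaled to a common library size). A count of 0 in a library still allows 0.159 to 0.191 CPM. Of 10 defining endothelial markers 7 were higher and 0 lower in vein, where 4.11% of all genes tested were higher and 7.33% lower. Their summed level was 17004 and 14734 CPM in vein against 3951 and 5519 CPM in non-vein libraries, with none of the markers at 0 in either group. Most of each sum was kdrl, the gene whose promoter drives the GFP of both gates. It had 10504 and 7933 CPM in vein, against 1998 and 2956 CPM in non-vein. Of 10 vein and lymphatic markers, lyve1b of the DsRed gate among them, 6 were higher and 0 lower. Their sums were 6529 and 5778 CPM in vein against 317 and 901 CPM in non-vein. Of 12 arterial markers, dll4 among them, 1 was higher and 2 lower. Their sums were 1065 and 1106 CPM in vein against 455 and 749 CPM in non-vein. Of 9 pan-leukocyte markers 6 were lower and 0 higher, with sums of 369 and 514 CPM in vein against 3679.9 and 3225 CPM in non-vein, and ptprc, cd74a and WAS had no count in vein library 1. Of 8 blood stem and progenitor markers 4 were lower and 0 higher, with sums of 542 and 638 CPM in vein against 938 and 924 CPM in non-vein, and gfi1aa was at 0 in both vein libraries. Both vein libraries lay below both non-vein libraries for 7 of these markers and above them for 1, where 33.1% and 29.0% of all genes tested did so. The median log2 fold of these progenitor markers was -3.16. Of 6 thrombocyte markers tested 2 were lower and 0 higher, with sums of 10.4 and 14.2 CPM in vein against 158 and 134 CPM in non-vein. Skeletal muscle markers summed to 3029.9 and 8142 CPM in vein against 819 and 2092 CPM in non-vein libraries, with 1 of 8 called higher, ckma. The share of ribosomal protein genes was 3.54% and 3.56% in vein, against 8.2% and 9.17% in non-vein.

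FOS and the JUNB pair were among the most abundant transcripts of every library, at FPKM ranks of 4 to 12 in vein and 13 to 41 in non-vein, while fosaa was near the detection limit. Together the 9 genes took 4.82% and 5.3% of all counts in the vein libraries, against 1.82% and 1.96% in the non-vein libraries. The 95% Wilson intervals were 4.808% to 4.829% and 5.289% to 5.31% in vein, against 1.811% to 1.823% and 1.957% to 1.969% in non-vein, and cover counting error only. Both vein shares lay above both non-vein shares, and the mean vein share was 2.68 times the mean non-vein share. Shares are given without a test: an exact two-sided permutation test of 2 libraries against 2 cannot give a p under 0.333.

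Jun genes held the larger part. Their counts made up 3.04% and 3.4% of the vein libraries, against 1.16% and 1.18% of the non-vein libraries. Fos genes made up 1.77% and 1.9% of the vein libraries, against 0.658% and 0.787% of the non-vein libraries. The balance between the families moved little: summed Fos FPKM (fragments per length of transcript, scaled to library size) was 0.494 and 0.476 of summed Jun FPKM in vein, against 0.481 and 0.572 in non-vein, and these ranges did overlap.

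**Figure D1:**
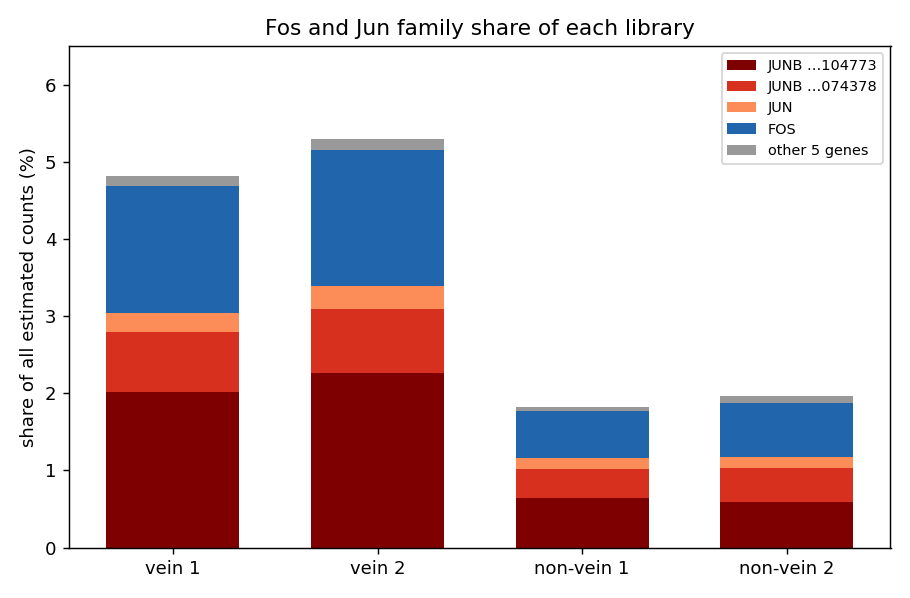
Share of all estimated counts taken by the Fos and Jun family genes, in percent, 1 bar for each library, stacked by gene with the 5 least abundant members combined. The bars reach 4.82% and 5.3% in vein and 1.82% and 1.96% in non-vein libraries, and FOS and the JUNB genes make up nearly the whole of each.

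FOS and the pair of JUNB genes alone accounted for 4.44% and 4.85% of all counts in vein, against 1.63% and 1.74% in non-vein. Among the 10 genes with most counts in a library there were 2 and 3 family members in vein, against 2 and 2 in non-vein. In FPKM, which allows levels of different genes to be set side by side, the 9 genes kept one order in all 4 libraries. JUNB (ENSDARG00000104773) came first, then FOS, JUNB (ENSDARG00000074378), JUN, FOSB, FOSL2, FOSL1, JUND and fosaa. In vein the FPKM ranges of neighbours in this order did not overlap. In non-vein those of FOSB (87.7 and 237 FPKM) and FOSL2 (70.5 and 103 FPKM) overlapped, and JUNB (ENSDARG00000104773) at 4406 ± 251 FPKM and FOS at 3880.2 ± 392 FPKM (SD, n = 2) lay close.

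**Figure D2:**
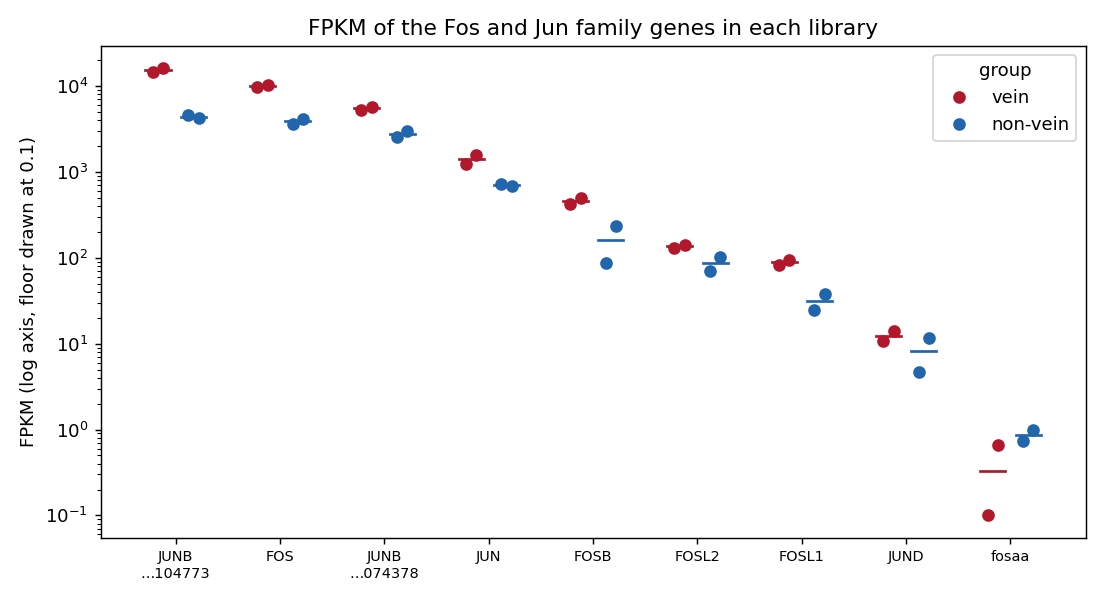
FPKM of each family member in each library on a log axis, with vein left of non-vein for each gene; points are libraries and short lines group means, and the value of 0 for fosaa in vein library 1 is drawn at 0.1. Levels run from 14386 and 16088 FPKM for JUNB (ENSDARG00000104773) in vein down to at most 1.0 FPKM for fosaa in any library.

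Of the 9 genes, all passed the filter on low counts, and 5 were higher and 0 lower in vein by edgeR's quasi-likelihood test at a Benjamini-Hochberg adjusted p under 0.05 over all genes (7 higher and 0 lower at an unadjusted p under 0.05). Among all 15953 genes tested, 4.11% were called higher and 7.33% lower, 11.4% in either direction, and 30.1% had an unadjusted p under 0.05. DESeq2 called 7 members higher and 0 lower, where it called 10.1% of all genes higher and 14.5% lower, and limma-voom 6 and 0, where it called 6.43% and 9.45%. Abundant genes were called more often: 5 of the 7 members averaging 100 CPM or more (scaled by TMM factors) were called higher, where 19.0% of the 1572 genes at that level were. At 1000 CPM or more 4 of 4 members were called higher, both JUNB genes, FOS and JUN, where 32.0% of 122 genes were. The median log2 fold was 1.08 over the 9 members and 0.01 over all genes tested, and 1.45 over the 7 members and -0.36 over all genes at 100 CPM or more. Both vein libraries lay above both non-vein libraries for 7 of the 9 members, where 29.0% of all genes tested did so. For the 7 members at 100 CPM or more and the 4 at 1000 CPM or more this held for all, where 36.5% and 49.2% of genes at those levels did so. The log2 fold was above 0 for 8 of 9 members and for 50.2% of all genes tested. In bulk samples, fewer cells of a type and less RNA per cell cannot be told apart. The part of the endothelial, vein, arterial, leukocyte, blood progenitor, thrombocyte and muscle content of the libraries in these differences was not tested.

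**Figure D3:**
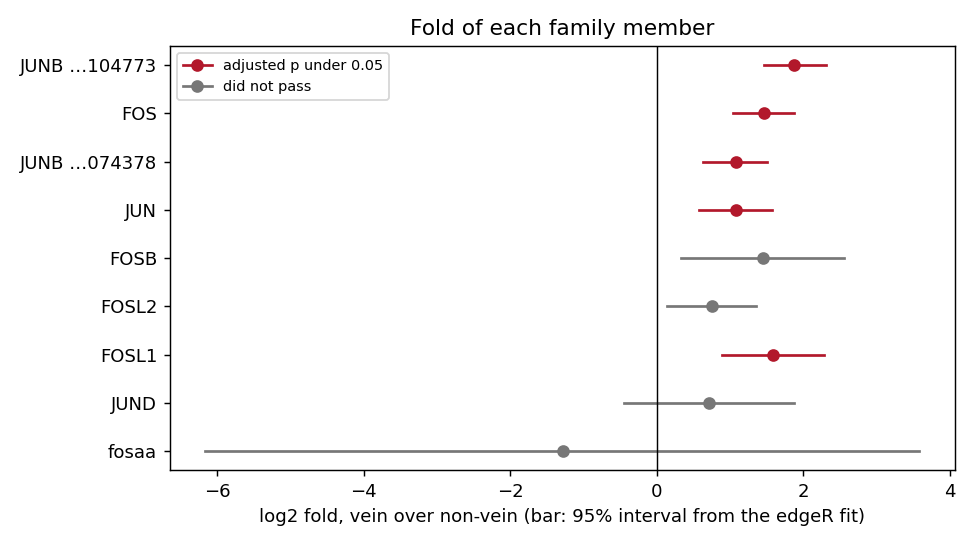
Log2 fold of each family member, vein over non-vein, from the edgeR fit, with bars for its 95% interval; red members had an adjusted p under 0.05. The 5 red members run from 1.08 for JUN and JUNB (ENSDARG00000074378) to 1.88 for JUNB (ENSDARG00000104773), and the interval of fosaa spans -6.16 to 3.59.

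Among Fos genes, FOS encodes the founding member of the family, a strong but short-lived activator when paired with Jun. It had 16875 and 18418 CPM in vein, against 6003 and 6769 CPM in non-vein libraries. The groups stood far apart, with little spread inside either. FOS rose 2.76-fold in vein (log2 1.47, SE 0.17, edgeR's quasi-likelihood test, adjusted p = 0.0149, n = 2 and 2). By FPKM it was at rank 7 and 6 of all listed genes in vein and at rank 21 in both non-vein libraries.

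FOSL1, known as Fra-1, lacks a strong activation domain and is often induced later than FOS. Its level was 323 and 374 CPM in vein, against 91.8 and 139.9 CPM in non-vein libraries. Both vein values exceeded both non-vein values, and the non-vein libraries differed by 1.52 times. FOSL1 rose 3.01-fold (log2 1.59, SE 0.28, edgeR, adjusted p = 0.0267). Without vein library 2 its adjusted p was 0.0536.

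FOSB, an immediate early gene known in the brain for a truncated, long-lived splice form, stood at 482 and 567 CPM in vein, against 109 and 276 CPM in non-vein libraries. The vein libraries were both higher, but the non-vein libraries differed from each other by 2.54 times. Its 2.72-fold difference did not pass the test (log2 1.45, 95% interval 0.33 to 2.56, edgeR, adjusted p = 0.0945). Leaving out non-vein library 2 gave a log2 fold of 2.26 (edgeR, adjusted p = 0.0046), and leaving out library 1 of that group gave 0.93 (adjusted p = 0.0726). DESeq2 called FOSB higher (adjusted p = 0.00497), and limma-voom did as well (adjusted p = 0.0319).

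FOSL2, known as Fra-2, is expressed in many tissues also at rest. It had 482 and 541 CPM in vein, against 251 and 358 CPM in non-vein libraries, so the groups did not overlap. The 1.68-fold difference did not pass (log2 0.75, 95% interval 0.14 to 1.36, edgeR, adjusted p = 0.105), and DESeq2 called it (adjusted p = 0.0305). Without non-vein library 2 the log2 fold was 1.02 with an adjusted p of 0.0397.

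fosaa, the second zebrafish counterpart of mammalian FOS, was close to the detection limit. It had 0 and 13 counts in vein, against 16 and 23 counts in non-vein libraries. That is less than 1.2 CPM everywhere, and both vein values were below both non-vein values, as for 33.1% of all genes tested. Its log2 fold of -1.28 had a 95% interval of -6.16 to 3.59 (edgeR, adjusted p = 0.738), so a difference in either direction was not detectable at this depth. Close paralogs can share reads in estimated counts, and the split between FOS and fosaa is uncertain for that reason.

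Among Jun genes, JUN encodes the founding partner of AP-1, which activates its own promoter and is phosphorylated by JNK. Its level was 2472 and 3177 CPM in vein, against 1385 and 1287 CPM in non-vein libraries. The groups did not overlap. JUN rose 2.11-fold (log2 1.08, SE 0.2, edgeR, adjusted p = 0.0303). Without vein library 2 its adjusted p was 0.0811.

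JUNB, a weaker activator than JUN that can also restrain it, was represented by a pair of genes. One of them had the highest FPKM of the family in every library. JUNB (ENSDARG00000104773) stood at 20688 and 23655 CPM in vein, against 6315 and 5694 CPM in non-vein libraries. By FPKM it ranked 4 in both vein libraries and 13 and 17 in the non-vein libraries. It rose 3.69-fold, the largest fold among members with an adjusted p under 0.05 (log2 1.88, SE 0.17, edgeR, adjusted p = 0.0124).

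JUNB (ENSDARG00000074378) had 7925 and 8638 CPM in vein, against 3636 and 4222 CPM in non-vein libraries. Here too the groups stood apart. It rose 2.11-fold (log2 1.08, SE 0.18, edgeR, adjusted p = 0.0223). Without vein library 1 its adjusted p was 0.0508.

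The balance within the JUNB pair differed between the groups. The FPKM of ENSDARG00000104773 was 2.71 and 2.85 times that of ENSDARG00000074378 in vein, against 1.79 and 1.41 times in non-vein libraries. The ranges did not overlap, and the ratio was not tested. How the estimated counts split reads between these paralogs is uncertain. Their summed count does not depend on that split. It took 2.8% and 3.09% of all counts in vein, against 1.01% and 1.03% in non-vein, a mean share 2.87 times as large. Set against JUN, the summed JUNB FPKM was 15.9 and 14.0 times as high in vein, against 9.88 and 10.5 times in non-vein. Unlike the summed count, this FPKM sum also depends on the split, since FPKM is scaled by length.

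JUND, which in mammals is transcribed steadily and is not an immediate early gene, was the least abundant Jun gene. It had 67.5 and 90.3 CPM in vein, against 28.5 and 67.9 CPM in non-vein libraries. The groups overlapped, since non-vein library 2 lay just above vein library 1. Its log2 fold of 0.71 did not pass (95% interval -0.45 to 1.87, edgeR, adjusted p = 0.384), and it was 0.22 when non-vein library 1 was left out and 1.46 when library 2 of that group was.

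**Figure D4:**
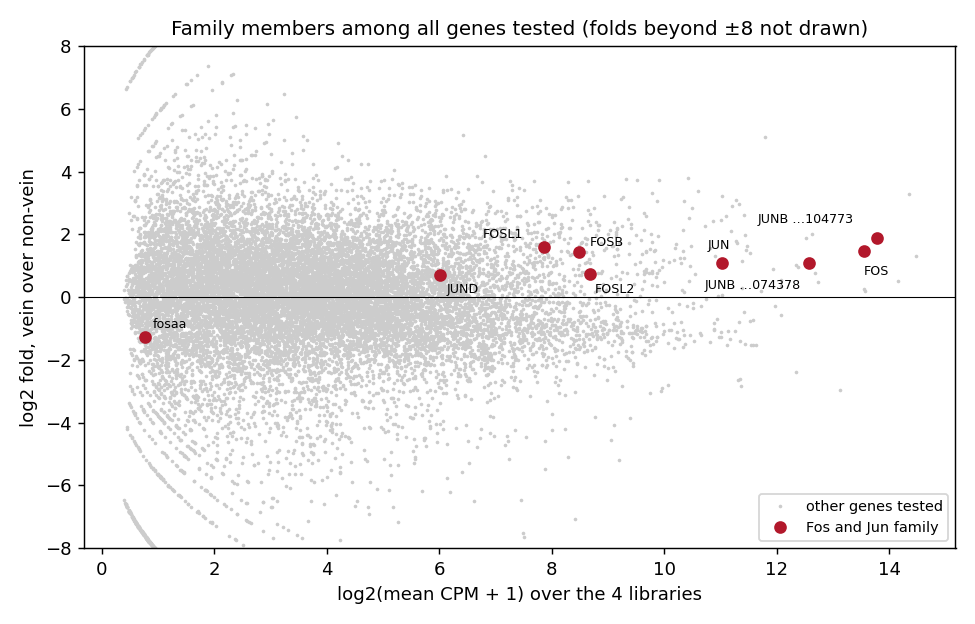
Log2 fold, vein over non-vein, against log2 of the mean CPM plus 1 for each gene tested (grey), with the Fos and Jun family genes in red; genes with folds beyond 8 on the log2 scale are not drawn. FOS and the JUNB genes lie at the far right, among the most abundant genes, all above 0, and fosaa lies at the far left.

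Replicates of a group agreed closely for the abundant members. In vein, library 2 exceeded library 1 for all 9 genes, by 1.09 to 1.34 times for the 8 with counts in both, where 50.4% of all genes tested were higher in library 2. In non-vein it did so for 7 of 9, by up to 2.54 times, where 52.3% of all genes tested were higher in library 2. JUN was at 0.93 and JUNB (ENSDARG00000104773) at 0.902 times. Skeletal muscle markers differed between the vein libraries by more than any of these 8 genes, as their sums above show. So did epidermis markers (39.5 CPM in vein library 1 and 413 CPM in library 2) and fibroblast and stroma markers (37.4 and 155 CPM). Haemoglobin genes took 0.88% and 1.66% of all counts in these libraries. Summed markers of endothelium, of vein and lymphatic endothelium, of mural cells and of macrophages were lower in library 2. For endothelium, kdrl alone went from 10504 to 7933 CPM, while the whole sum went from 17004 to 14734 CPM. For macrophages the sums were 61.4 and 58.5 CPM, with 4 of 5 markers at 0 in vein. Summed markers of the other cell types looked at were higher in library 2, arterial endothelium with 1065 and 1106 CPM among them.

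**Figure D5:**
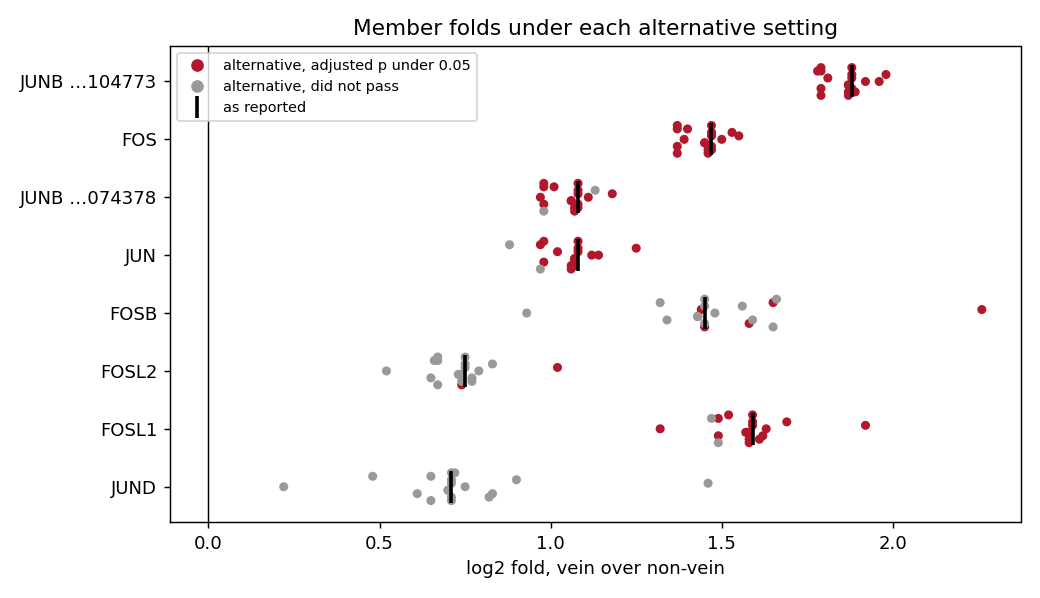
Log2 fold of the 8 family members other than fosaa under each of 18 alternative settings (points; red where the adjusted p was under 0.05) and as reported (black bar). Each of the 8 stays above 0 under all settings, and FOS and JUNB (ENSDARG00000104773) pass under all of them, while FOSB ranges from 0.93 to 2.26.

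Family relatives outside the chosen names, added once their values were known, were scarce. june had 35 and 30 counts in vein, against 10 and 23 counts in non-vein libraries (log2 1.29, SE 1.28, edgeR, adjusted p = 0.579). fosl1b had 16 and 0 counts in vein and none in non-vein, and fosl2l had none in vein, against 3 and 0 counts in non-vein, and neither entered the test.

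Of 22 other basic leucine zipper genes tested, 4 were higher and 1 lower in vein, where 4.11% of all genes were higher and 7.33% lower. By DESeq2 8 were higher and 1 lower, where 10.1% and 14.5% of all genes were. The median log2 fold was 0.85 over these 22 genes, against 0.01 over all genes tested. JDP2 (ENSDARG00000020133), whose product dimerises with Jun and represses AP-1 sites in mammals, had 3651 and 4620.4 CPM in vein, against 1226 and 1671 CPM in non-vein, and rose 2.85-fold (edgeR, adjusted p = 0.0208). maff, for a small Maf factor, had 339 and 431 CPM in vein, against 99.5 and 129 CPM in non-vein, and rose 3.37-fold (edgeR, adjusted p = 0.0183). creb1a, for a cAMP-responsive factor, was the lower one, at 33.0 and 41.3 CPM in vein, against 106 and 97.8 CPM in non-vein (2.74-fold lower, edgeR, adjusted p = 0.0308). Its call was lost when either non-vein library or vein library 1 was left out, and with the replicate block. ATF3, a stress-induced partner of Jun also named after its values were seen, had 791 and 698 CPM in vein, against 141 and 367 CPM in non-vein, and did not pass (log2 1.55, SE 0.46, edgeR, adjusted p = 0.0845).

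Transcripts of the kinases upstream of AP-1 showed no call. Over all genes tested edgeR called 11.4% in either direction, and 30.1% had an unadjusted p under 0.05. Of 24 MAP kinase pathway genes tested 0 were higher and 0 lower by edgeR (0 higher and 1 lower, MAP2K6, at an unadjusted p under 0.05), and DESeq2 and limma-voom also called 0. With vein library 2 left out, edgeR called 1 higher and 1 lower. Their median log2 fold was -0.08, and their summed level was 571 and 544 CPM in vein, against 526 and 551 CPM in non-vein. MAP3K5, for the stress kinase ASK1, had 90.8 and 74.6 CPM in vein, against 102 and 111 CPM in non-vein (log2 -0.36, edgeR, adjusted p = 0.403). Transcript levels of kinases say nothing of their activity, which was not measured.

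In mammals serum response factor and its ternary complex partners carry MAP kinase signals to the FOS promoter. Of 9 genes for these factors and for coactivators of serum response factor, edgeR called 0 in either direction. At an unadjusted p under 0.05, 1 was higher and 0 lower, and the median log2 fold was 0.12. Over all genes tested edgeR called 11.4%, and 30.1% had an unadjusted p under 0.05. DESeq2 called 10.1% of all genes higher and limma-voom 6.43%. The genes of this list other than ELK3 and mrtfab were scarce, at 13.8 CPM or less in each library. DESeq2 and limma-voom each called 1, ELK3, and edgeR called 1 higher when non-vein library 2 was left out. ELK3, a ternary complex factor of endothelium, had 938 and 1138 CPM in vein, against 477 and 714 CPM in non-vein (log2 0.8, edgeR, adjusted p = 0.104). mrtfab, a coactivator gene of serum response factor, had 42.1 and 47.6 CPM in vein, against 29.1 and 28.8 CPM in non-vein (log2 0.63, edgeR, adjusted p = 0.242).

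Of 10 genes that govern turnover of Fos and Jun proteins or of short-lived mRNAs, 2 were higher and 0 lower (median log2 0.79). By DESeq2 3 were higher and 0 lower. As a share, edgeR called 4.11% of all genes higher and 19.0% of those at 100 CPM or more. DESeq2 called 10.1% of all genes higher. The 2 genes called by edgeR carry the name ZFP36L1, an RNA-binding protein that marks AU-rich mRNAs for decay. ZFP36L1 (ENSDARG00000016154) had 2747 and 3552 CPM in vein, against 495 and 678 CPM in non-vein, and rose 5.37-fold (edgeR, adjusted p = 0.0144). ZFP36L1 (ENSDARG00000021443) rose 5.75-fold, with 2281 and 2461 CPM in vein, against 323 and 503 CPM in non-vein (edgeR, adjusted p = 0.0144).

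Over all genes tested, edgeR called 4.11% higher and 7.33% lower in vein, and DESeq2 10.1% and 14.5%. At 100 CPM or more edgeR called 19.0% higher. Of 35 other immediate early genes tested, 12 were higher and 1 lower in vein by edgeR, with a median log2 fold of 0.94. DESeq2 called 24 of this list higher and 2 lower. By edgeR 6 were higher when vein library 1 was left out. ier2a, a small nuclear protein gene induced together with FOS, had 10078 and 10212 CPM in vein, against 2213 and 2829 CPM in non-vein, and rose 4.02-fold (edgeR, adjusted p = 0.0141). The GADD45B genes ENSDARG00000013576 and ENSDARG00000027744, which encode stress-induced regulators of MAP kinase signalling, rose 4.96-fold and 3.88-fold (edgeR, adjusted p = 0.0144 and 0.0178). klf2b, a flow-responsive factor gene of endothelium, had 488 and 471 CPM in vein, against 127 and 165 CPM in non-vein, and rose 3.29-fold (edgeR, adjusted p = 0.0165). A MYC gene (ENSDARG00000045695), named after its values were seen, was the lower one, at 4.11 and 13.1 CPM in vein, against 100.4 and 82.9 CPM in non-vein (10.6-fold lower, edgeR, adjusted p = 0.0268). The other gene named MYC (ENSDARG00000007241), also added after its values were seen, was among the 12 higher. It had 322 and 421 CPM in vein, against 148 and 183 CPM in non-vein (2.24-fold higher, edgeR, adjusted p = 0.0397).

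Of 23 tested genes described in mammals as AP-1 targets, 3 were higher and 1 lower (median log2 1.06). Over all genes tested 4.11% were higher and 7.33% lower. By DESeq2 9 of the 23 were higher and 2 lower, against 10.1% and 14.5% of all genes. By edgeR 5 were higher and 0 lower with non-vein library 1 left out, 7 and 0 with non-vein library 2 left out, 2 and 1 with vein library 1 left out, and 3 and 3 with vein library 2 left out. HMOX1 (ENSDARG00000027529), the inducible heme oxygenase, held most of the list's summed level, with 6498 and 7299 CPM in vein, against 144 and 259 CPM in non-vein, and rose 34.2-fold (edgeR, adjusted p = 0.00985). TIMP2 genes, for an inhibitor of matrix metalloproteinases, rose 4.92-fold (ENSDARG00000061226, edgeR, adjusted p = 0.016) and 10.3-fold (ENSDARG00000075261, edgeR, adjusted p = 0.0367). cd44b, for a hyaluronan-binding adhesion molecule, had 0 counts in vein, against 279 summed over non-vein. With 3 counts over the vein group as the floor it was at least 75.7-fold lower (edgeR, adjusted p = 0.0357). It was the list's only lower call, and with the replicate block 0 were lower. MMP9, a protease gene of the list that neutrophils also express and that was named after its values were seen, had 19.4 and 61.2 CPM in vein, against 38.4 and 36.6 CPM in non-vein (log2 0.1, edgeR, adjusted p = 0.935).

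Among the 1565 other tested genes averaging 100 CPM or more, likeness to the summed Fos and Jun profiles was measured as the Euclidean distance of centred log2(CPM + 1) over the 4 libraries. Nearest to the summed Fos genes were PLBD2, ABHD2 and dll4 (distances 0.0657, 0.0658 and 0.0664). PLBD2, for a lysosomal protein, had 155 and 174 CPM in vein, against 57.1 and 67.7 CPM in non-vein. Nearest to the summed Jun genes were CCNG2, an assembled locus without a symbol and ubb (distances 0.104, 0.125 and 0.136). ubb, a polyubiquitin gene, had 1135 and 1261 CPM in vein, against 421 and 453 CPM in non-vein. With 4 libraries in 2 groups these distances describe the contrast between the groups and the spread inside them, and nothing more.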

How the data were processed

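Estimated counts per gene were deposited by the authors. The header calls these columns FPKM, yet they hold whole numbers whose totals differ between libraries, and they were used unchanged as rounded estimates. A second table of FPKM values, also deposited by the authors, served for levels between genes and for alternatives. The submitters' processing notes list the build GRCz11 with RSEM, DESeq2, HISAT2, fastp 0.18.0, StringTie 1.3.1 and Bowtie2 2.2.8, but no roles. Whether counting used strand is not stated there. Symbols were matched by Ensembl identifier to a supplied name table (23608 of 25522 identifiers).

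Genes kept by filterByExpr (minimum count 10) were scaled by TMM and tested together in edgeR 4.0.16 (R 4.3.3; quasi-likelihood, legacy method, a single term for group). A call was a Benjamini-Hochberg adjusted p under 0.05. The common biological coefficient of variation was 0.699. The standard error is the size of the log2 fold over the square root of F. These steps were tested on simulated data, with a pass condition set only at a coefficient of variation below the 0.699 of these data. Alternatives were DESeq2 1.42.0, limma 3.58.1 (voom, or log2 FPKM), other scalings and filters, a replicate block and leaving out each library. One further scaling, on genes other than the members, was chosen once the data had been seen.

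The members and the lists were chosen with earlier results of these data known. Every member is named. From each pathway list the text names up to 4 changed genes by adjusted p, or, if none changed, the 2 with the highest level, and it marks exceptions. Some genes that this rule names are not reported here. Names carried by more than 3 identifiers were left out of the lists. The labels name no pairs, and the replicate numbers were not taken as pairs. Across all genes tested, deviations of same-numbered libraries had r = 0.0441. Counting noise in scarce genes also lowers r, so it cannot decide whether these libraries were paired. Sequences and coordinates are not used here.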

Additional observations from a re-analysis of the deposited data

How the results depend on the processing

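FOS and JUNB (ENSDARG00000104773) passed the threshold under all 18 alternatives, with log2 folds of 1.37 to 1.55 and 1.78 to 1.98. JUN, FOSL1 and JUNB (ENSDARG00000074378) passed under 16 of 18 each, and all 3 were lost when limma was run on unfiltered log2(FPKM + 1) values (adjusted p = 0.0652, 0.0572 and 0.0697). FOSB passed under 6 of 18, FOSL2 under 2 and JUND under 0, where its adjusted p ran from 0.0842 to 0.856. No member changed sign under an alternative that gave it a value. The number of members called higher was 2 with limma on those unfiltered values and 3 to 7 when single libraries were left out, 3 of them without vein library 2. It was 5 with the replicate block, with library totals without scaling and with scaling on the other genes, a setting added after the data were seen. No alternative called a member lower.

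Over all genes, 1618 were higher and 2319 lower with DESeq2, 1332 and 1881 with the edgeR version 4 method, 1163 and 2137 with limma on log2(FPKM + 1) at a mean FPKM of at least 1, against 656 and 1170 as reported. Without a filter 1092 were higher, with limma-voom 1026, and with limma on unfiltered log2(FPKM + 1) values 333. With limma on log2(FPKM + 0.1) 1769 were lower, and with the replicate block 716. Leaving out single libraries gave 408 to 942 higher (408 without vein library 1) and 622 to 1313 lower (622 without non-vein library 1). Over the alternatives, genes called higher numbered 2 to 8 of the basic leucine zipper list, 5 to 24 of the immediate early list and 2 to 9 of the AP-1 target list.

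The mean Fos share was 1.84% in vein and 0.723% in non-vein, and the mean Jun share 3.22% in vein and 1.17% in non-vein. Without haemoglobin, mitochondrial and ribosomal protein genes in the total, Fos took 2.02% in vein and 0.832% in non-vein, and Jun 3.54% in vein and 1.34% in non-vein. Without the 100 most abundant other genes, Fos took 2.84% in vein and 1.01% in non-vein, and Jun 4.97% in vein and 1.64% in non-vein. Of summed FPKM, Fos took 1.42% in vein and 0.5% in non-vein, and Jun 2.93% in vein and 0.95% in non-vein. Single libraries gave 1.77% to 1.9% in vein and 0.658% to 0.787% in non-vein for Fos, and 3.04% to 3.4% in vein and 1.16% to 1.18% in non-vein for Jun. Vein exceeded non-vein in each of these. Counts of fosaa were 0 and 13 in vein and 16 and 23 in non-vein, too few to show a difference in either direction. FOSB and JUND differed 2.54 and 2.39 times between the non-vein libraries, and the part of that spread in their missing calls was not tested.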
